A study of Mus musculus with 13 samples.

Results

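Cells carry sensors that recognise DNA and RNA where neither should accumulate, and nucleases that remove those ligands. The transcripts of 10 genes of this system were followed in mammary glands and mammary tumors of mice. They were chosen by symbol: Mb21d1 (encoding cGAS), Tmem173 (encoding STING), Trex1, Tbk1, Irf3, Mavs, Adar, Rnaseh2a, Rnaseh2b and Rnaseh2c. All 10 symbols were found among the 24421 genes of the count table, and all 10 passed the filter on low counts.

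RNA was sequenced from 13 libraries of female FVB/N mice of the TgN(MMTV-HER2/neu)202Mul/J line, which carry a rat HER2/Neu cDNA driven in breast epithelium by the MMTV promoter and form mammary tumors spontaneously. The labels give the genotype as wild type for every library, although the strain is transgenic. The groups were cancer-free mammary gland of untreated mice (n = 2), primary untreated tumors (n = 3), primary STV tumors (n = 3), recurrent 17-DMAG tumors (n = 3) and recurrent 17-DMAG + STV tumors (n = 2). STV is stavudine, a nucleoside inhibitor of reverse transcriptase, which was given at 1 mg/mL in drinking water, an estimated 200 mg/kg a day. It was started in young mice or once a primary tumor had appeared. Primary STV tumors arose while the mice were already drinking stavudine, and for the recurrent 17-DMAG + STV tumors the start was not given. 17-DMAG is an inhibitor of the chaperone HSP90, injected intraperitoneally at 20 mg/kg 3 times a week. Recurrent tumors had regrown at the same site after a complete response. Injections went on until the regrown tumors were at their end-point size, so recurrence and ongoing 17-DMAG cannot be told apart. Ages at collection were not given, and nothing beyond the wording of individual tumors ties libraries to separate animals, so p-values measure the spread between these samples. The study asked whether blocking reverse transcription of retroelements changes tumor development and relapse, and DNA copied from RNA is 1 of the ligands that cGAS can bind.

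As background, cGAS binds double-stranded DNA in the cytosol and makes a cyclic dinucleotide that activates STING. STING recruits the kinase TBK1, which phosphorylates the transcription factor IRF3, and IRF3 switches on type I interferon. MAVS is the adaptor on mitochondria that joins the RNA sensors RIG-I and MDA5 to the same kinase. TREX1 degrades DNA in the cytosol, ADAR edits adenosines in double-stranded RNA, and RNase H2, an enzyme of a catalytic subunit (Rnaseh2a) and a pair of accessory subunits (Rnaseh2b and Rnaseh2c), removes RNA from RNA:DNA hybrids and ribonucleotides from DNA. Loss of any of these nucleases or of ADAR causes an inherited interferon disease in humans, Aicardi-Goutieres syndrome.

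Start regions are shown for Mavs, whose level set the primary untreated tumors above the other 8. They are also shown for Adar, whose lowest tumors had the lowest sums of interferon targets and which has several starts. RefSeq on GRCm38.p6 gave 11 windows for 8 of the 10 members, each 300 bases long from 250 before to 50 after an annotated start. The interferon-inducible long form of Adar and its constitutive shorter form begin at different starts, so the gene counts used here sum both. In the lines below, capitals mark every match on either strand to GAAANNGAA (the core of an interferon-stimulated response element), to GGGCGG or to CCAAT.
Adar, chr3:89714772-89715071, plus strand: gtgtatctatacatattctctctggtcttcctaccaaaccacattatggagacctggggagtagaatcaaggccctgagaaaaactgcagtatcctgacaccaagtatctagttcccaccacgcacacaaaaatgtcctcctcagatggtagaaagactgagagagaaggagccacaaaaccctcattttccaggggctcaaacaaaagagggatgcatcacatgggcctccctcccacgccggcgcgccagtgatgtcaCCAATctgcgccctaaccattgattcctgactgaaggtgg
Adar, chr3:89730468-89730767, plus strand: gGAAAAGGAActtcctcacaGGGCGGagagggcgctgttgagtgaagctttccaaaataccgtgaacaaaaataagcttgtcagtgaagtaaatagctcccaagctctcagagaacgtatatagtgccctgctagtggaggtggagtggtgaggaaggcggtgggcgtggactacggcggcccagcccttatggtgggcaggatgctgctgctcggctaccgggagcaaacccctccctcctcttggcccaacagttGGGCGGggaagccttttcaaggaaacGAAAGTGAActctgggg
Mavs, chr2:131233813-131234112, plus strand: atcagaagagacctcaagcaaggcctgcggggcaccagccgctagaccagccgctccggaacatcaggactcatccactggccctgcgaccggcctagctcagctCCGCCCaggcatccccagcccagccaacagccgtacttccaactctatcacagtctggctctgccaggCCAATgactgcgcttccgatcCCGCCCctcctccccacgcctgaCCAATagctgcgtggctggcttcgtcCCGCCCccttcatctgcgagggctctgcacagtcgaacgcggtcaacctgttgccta

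The window at the downstream Adar start held both of the matches to GAAANNGAA found in the member windows, and 8.56% of all 32851 mouse windows held at least 1. The last of its matches stands within the bases transcribed from that start. The same letters followed by 1 more A were in 0 of the 11 member windows and in 3.44% of all windows, and the form without it was searched after the windows had been read. GGGCGG was in 7 of the 11 member windows, against 35.7% of all windows, and CCAAT in 4, against 37.4%. The Adar windows chr3:89714772-89715071 and chr3:89714988-89715287, the latter not shown, overlap and hold the same CCAAT, which was counted in both. The Mavs window held 3 matches to GGGCGG and 2 to CCAAT. These are letters in a window and not measured binding sites.

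Library totals ran from 39921388 to 56887708 counts, and no member had fewer than 135 counts in any library. Levels are CPM (counts-per-million of the library total, scaled by TMM factors), where the factors correct for a few genes taking a large share of a library. It was lowest in gland 2 (0.493), where all remaining libraries had values of 0.999 to 1.12. Gland 2 stood apart: 5 milk protein genes summed to 537198 CPM there, against 21078 in gland 1 and 4436 to 19698 in the tumors. Scaling by its low TMM factor raises every CPM of gland 2, so the milk protein sum there is not their share of its counts. Leukocyte markers went the other way, with 11 genes summing to 164 CPM in gland 2 and 644 in gland 1. The 6 luminal epithelial markers were above 0 in all 13 libraries and summed to 1412 to 2967 CPM in the tumors, the lowest sum being in recurrent 17-DMAG + STV tumor 2. In bulk tissue, fewer cells of a type and less RNA per cell cannot be told apart.

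Per kilobase of principal transcript, Irf3 and Adar had the highest levels and Mb21d1 the lowest. The medians over the 11 tumors were 27.4 CPM per kb for Irf3, 24.9 for Adar, 20.7 for Tbk1 and 16.3 for Mavs. Below them, Rnaseh2c (9.05), Tmem173 (9.01), Rnaseh2a (8.81) and Rnaseh2b (8.73) had nearly equal medians, and Trex1 followed at 7.54. The ranges of these neighbours overlapped. Mb21d1 was at 1.61 CPM per kb, and its highest tumor (2.13) was below the lowest tumor of every other member (5.21 or more). The DNA sensor was therefore lower per length of principal transcript than its adaptor, kinase and transcription factor in all 11 tumors. The order of the members depends on the length used, because the counts are per gene. All annotated exons span 6243 bases for Rnaseh2b and 8118 for Adar, against principal transcripts of 1494 and 3753 bases. For Mb21d1 these lengths are 4126 and 4049 bases. By all exons, Rnaseh2b and Adar would lie lower relative to Mb21d1, and the order by that length was not tested.

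**Figure D1:**
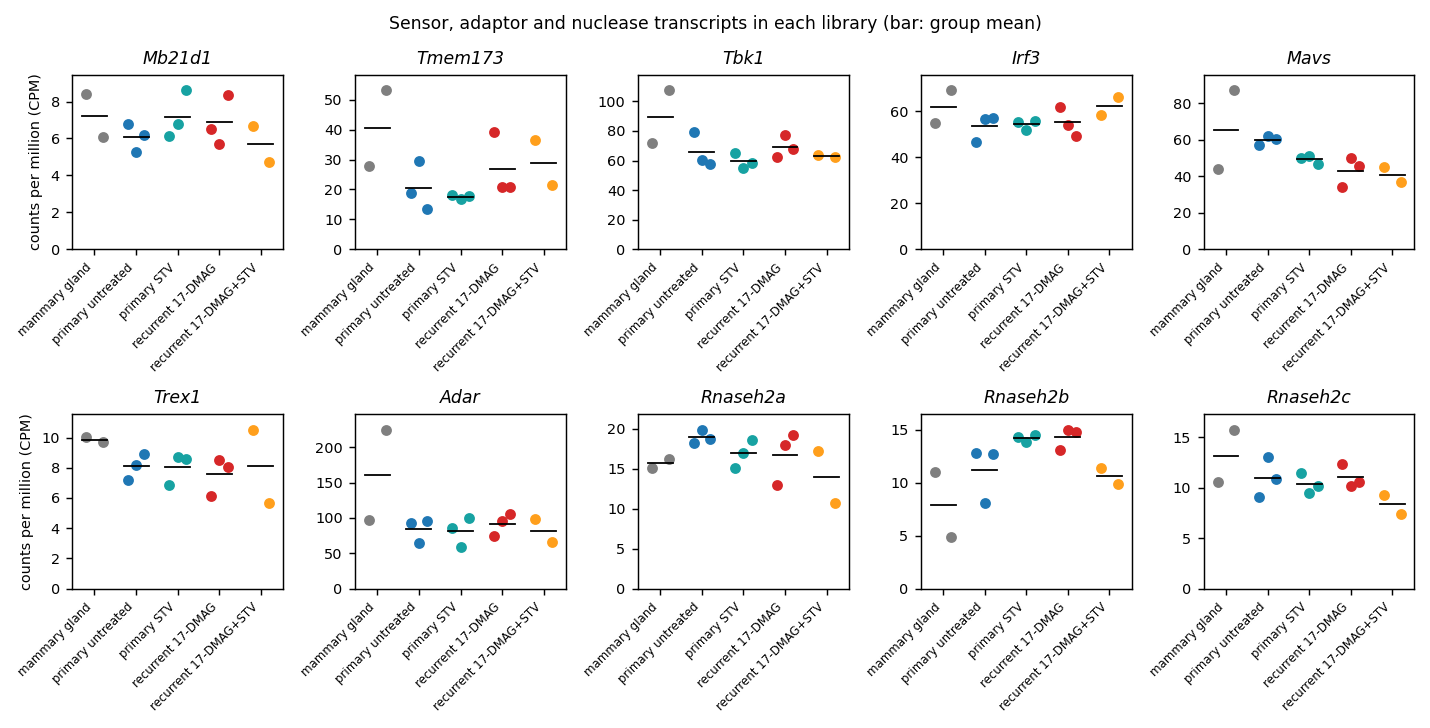
Level in CPM (y axis, from 0) of each of the 10 genes in the 13 libraries, by group (x axis); points are libraries and bars are group means. Gland 2 is the highest point for Tmem173, Tbk1, Irf3, Mavs, Adar and Rnaseh2c, and the 3 primary untreated tumors lie above the other 8 tumors for Mavs.

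The question of whether the pathway differed between tumor and gland was answered first. Against the glands, most members were fitted lower in tumors and none passed the adjusted test. In primary untreated tumors against gland, 0 of 10 members passed edgeR's quasi-likelihood test at an adjusted p under 0.05, where 361 of 17135 genes (2.11%) passed, and 3 of 10 had an unadjusted p under 0.05, against 24.5% of all genes. Averaged over the 4 tumor groups, 0 of 10 passed, against 10.4% of all genes, and 4 of 10 had an unadjusted p under 0.05, against 29.6%. Groups did not overlap for 3 of 10 members in the first comparison (39.2% of all genes) and for 0 of 10 in the second (11.5%). The fitted change was below 0 for 8 of 10 members in both comparisons, as it was for 51.2% and 51.6% of all genes, with medians of -0.25 and -0.34 on the log2 scale, where the medians of all genes tested were -0.02 in both. DESeq2 called 0 members in the first comparison, where it called 13.1% of genes, and 2 in the second, Tbk1 (adjusted p = 0.0440) and Adar (adjusted p = 0.0281), where it called 18.6% of genes. limma voom called 0 members in both, where it called 2.41% and 9.00% of genes.

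Adar had the largest difference of a member over the 4 tumor groups and Tmem173 that in primary untreated tumors. Adar stood at 97.2 CPM in gland 1 and 225 CPM in gland 2. The primary untreated tumors were at 93.5, 64.7 and 96.0 CPM, below both glands, although the highest lay close to gland 1. Over the 4 tumor groups the log2 difference from gland was -0.92 (SE 0.28), with an adjusted p of 0.0625 by edgeR's quasi-likelihood test, and in primary untreated tumors it was -0.93 (SE 0.35, adjusted p = 0.147). Tmem173 was at 27.8 and 53.2 CPM in the glands and at 18.8, 29.6 and 13.4 CPM in primary untreated tumors, so that the groups overlapped. Its log2 difference was -0.97 (SE 0.41, adjusted p = 0.174 by edgeR), or -0.81 (SE 0.33, adjusted p = 0.129) over the 4 tumor groups.

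Tbk1, the kinase shared by both arms, was at 71.8 and 107 CPM in the glands and at 54.8 to 79.5 CPM in the tumors. Its edgeR log2 difference was -0.44 (SE 0.19, adjusted p = 0.193) in primary untreated tumors and -0.48 (SE 0.16, adjusted p = 0.0807) over the 4 groups. Rnaseh2b went the other way. It was at 11.01 and 4.82 CPM in the glands and at 8.05 to 14.99 CPM in the tumors, a log2 difference of 0.65 (SE 0.28, adjusted p = 0.153 by edgeR) over the 4 groups. The smallest differences were those of Mavs in primary untreated tumors (-0.13, SE 0.25) and of Rnaseh2a over the 4 groups (0.08, SE 0.20).

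Most of these values rested on gland 2. With gland 2 left out, the difference over the 4 tumor groups fell to -0.11 (SE 0.31) for Adar, -0.07 (SE 0.18) for Tbk1 and -0.19 (SE 0.43) for Tmem173, while Mavs went from -0.46 to 0.20, Irf3 from -0.14 to 0.12 and Rnaseh2c from -0.38 to 0.02. The small difference of Mavs in primary untreated tumors lay between opposite values for the glands taken singly. It was 0.54 without gland 2 (95% interval 0.06 to 1.02, adjusted p = 0.282 by edgeR) and -0.51 without gland 1 (-0.98 to -0.04, adjusted p = 0.115). With gland 1 left out, 4 of 10 members were called, where 24.2% of genes were: Adar (-1.36), Mavs (-0.83) and Tbk1 (-0.70) lower and Rnaseh2b (1.41) higher in tumors. With a lone gland the fit assumes that it varies like the tumors. In primary untreated tumors alone, leaving out gland 1 called Adar (-1.37), Tbk1 (-0.67) and Rnaseh2b (1.25), 3 of 10, where 19.2% of genes were called. The part of the milk protein and leukocyte levels in these differences was not tested.

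**Figure D2:**
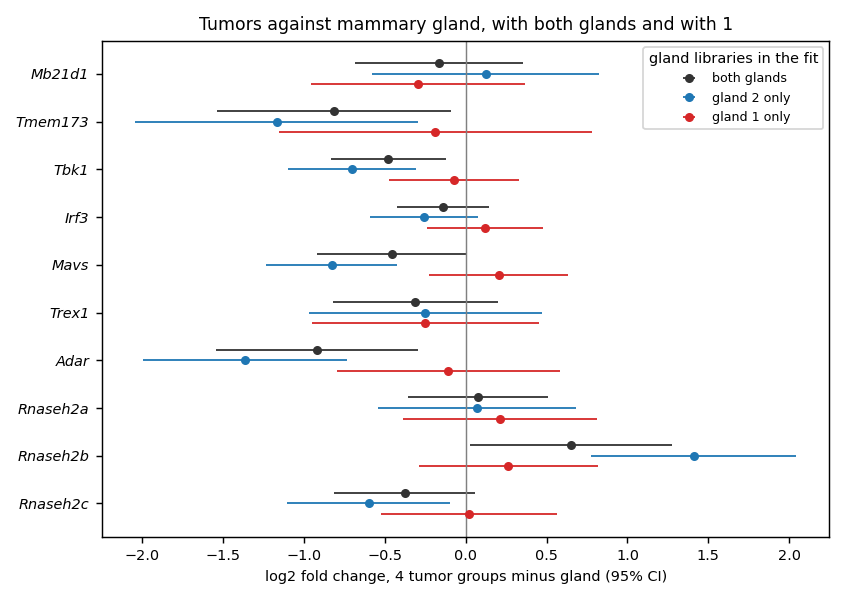
Fitted log2 fold change of the 4 tumor groups minus gland (x axis) for each gene (y axis), with 95% confidence intervals, from fits with both glands, with gland 2 only and with gland 1 only. With gland 1 only all 10 intervals include 0, and with gland 2 only Adar reaches -1.36 and Rnaseh2b 1.41.

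The next question was whether stavudine alone, recurrence after 17-DMAG, or both together moved the members. None was called in any tumor comparison. By edgeR's quasi-likelihood test on the 11 tumors, 0 of 10 members and 0 of 16870 genes (0 percent) passed in each of the 4 pairwise comparisons, in the averages over both water arms or over primary and recurrent tumors, in the interaction and in the test of any difference among the 4 groups. limma voom also called 0 members and 0 genes in each. DESeq2 called 0 members in each. It called 0.0989% of genes in primary STV and 0.440% in recurrent 17-DMAG against primary untreated tumors, and 1.95% and 1.65% in recurrent 17-DMAG + STV against primary STV and against recurrent 17-DMAG tumors. Its shares were 2.42% for recurrence and 0.377% for stavudine in the averages, 1.13% for the interaction and 3.20% for any difference. The 95% intervals give what these numbers of tumors could show: over the pairwise comparisons their bounds lay between -1.02 and 1.58 on the log2 scale, both being those of Tmem173.

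In primary STV against primary untreated tumors, 0 of 10 members had an unadjusted p under 0.05, against 3.76% of all genes. The members' median was -0.08 and that of all genes -0.03 (log2). The largest difference was that of Rnaseh2b, at 0.34 (SE 0.19), with a 95% interval from -0.08 to 0.75, and the smallest that of Irf3, at 0.01, with an interval from -0.27 to 0.29. For Mb21d1 the difference was 0.22 (-0.31 to 0.75) and for Tmem173 -0.25 (-1.02 to 0.53), so a 2-fold change lay outside the interval of Mb21d1 and a 2-fold fall just inside that of Tmem173. Groups did not overlap for 2 of 10 members, Rnaseh2b (higher) and Mavs (lower), against 10.8% of all genes.

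In recurrent 17-DMAG against primary untreated tumors, 1 of 10 members had an unadjusted p under 0.05, against 9.69% of all genes. This was Mavs, at -0.49 (SE 0.15, adjusted p = 0.509 by edgeR), and the smallest difference was that of Rnaseh2c, at -0.01. The same 2 members as under stavudine did not overlap between the groups, against 15.1% of all genes, and both comparisons share the 3 primary untreated tumors. In recurrent 17-DMAG + STV against primary STV tumors, 0 of 10 had an unadjusted p under 0.05, against 10.1% of all genes. The largest difference there was that of Tmem173, at 0.73 (SE 0.38), and the smallest that of Adar, at 0.01. With 2 tumors against 3, the groups did not overlap for 5 of 10 members, against 35.3% of all genes. In recurrent 17-DMAG + STV against recurrent 17-DMAG tumors, 0 of 10 had an unadjusted p under 0.05, against 7.84% of all genes. Rnaseh2b differed most there, at -0.42 (SE 0.21), and Mavs least, at -0.07, and Rnaseh2b and Rnaseh2c, both lower, were the 2 of 10 members without overlap, against 21.5% of all genes.

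**Figure D3:**
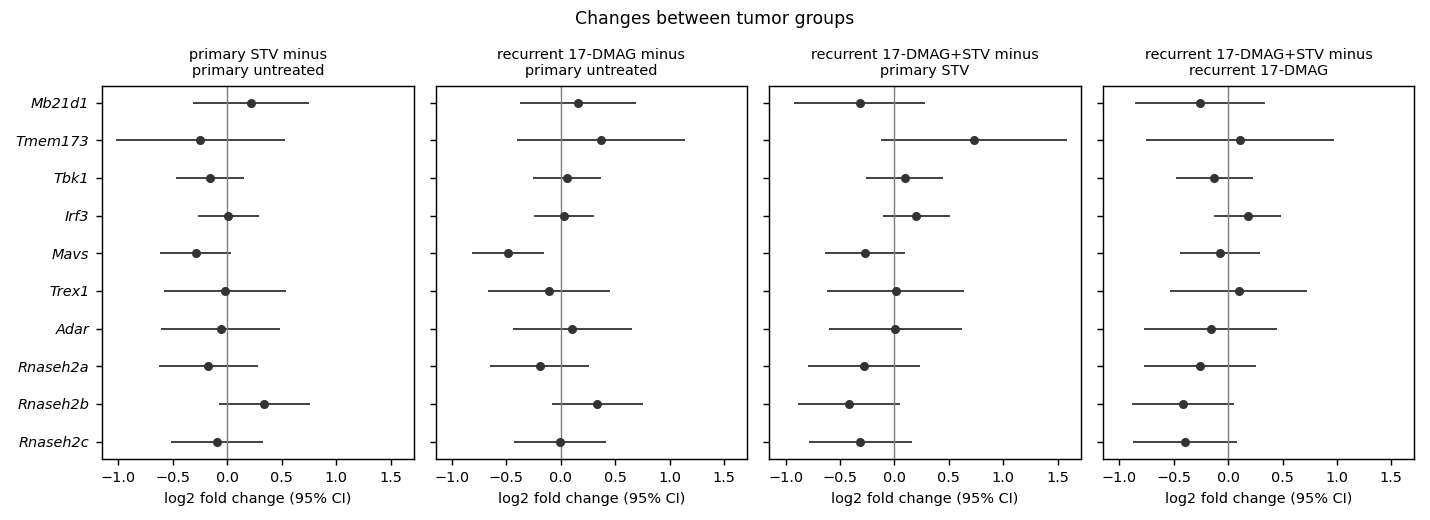
Fitted log2 fold change (x axis) with its 95% confidence interval for each gene (y axis) in the 4 pairwise comparisons of tumor groups, 1 panel each. The interval leaves out 0 for Mavs in recurrent 17-DMAG minus primary untreated tumors and for no other gene.

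Mavs set the primary untreated tumors apart from the other groups. The primary untreated tumors were at 56.95, 62.0 and 60.3 CPM and the primary STV tumors at 50.0, 51.3 and 46.5 CPM. The recurrent 17-DMAG tumors were at 34.0, 49.8 and 45.7 CPM, and the recurrent 17-DMAG + STV tumors at 44.99 and 36.7 CPM. All 3 primary untreated tumors thus lay above all 8 other tumors, of which the highest was at 51.3 CPM. Of all genes tested, 0.889% had all primary untreated tumors above the other 8. Averaged over both water arms, Mavs was lower in recurrent than in primary tumors by a log2 difference of -0.38 (SE 0.11), with an unadjusted p of 0.00690 and an adjusted p of 0.292 by edgeR's quasi-likelihood test. It was the 1 member of 10 with an unadjusted p under 0.05, against 13.6% of all genes. The edgeR test of any difference among the 4 groups gave Mavs an unadjusted p of 0.0192 and an adjusted p of 0.534, where 8.54% of all genes had an unadjusted p under 0.05.

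The 3 tumors with the lowest Mavs were also the 3 with the highest sums of the 4 fibroblast markers, all 4 of which were above 0 in every library. The sums were 3201 CPM in recurrent 17-DMAG tumor 1 and 893 and 1129 CPM in the recurrent 17-DMAG + STV tumors, against 179 to 585 CPM in the other 8 tumors. The primary STV tumors had fibroblast sums of 179 to 353 CPM and Mavs under that of every primary untreated tumor. Without recurrent 17-DMAG tumor 1, the difference of Mavs between recurrent 17-DMAG and primary untreated tumors went from -0.49 to -0.32. The list and the number of tumors compared were set for Mavs where they matched. The part of the fibroblast markers in this difference was not tested.

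Tmem173 varied most among the tumors, 2.91-fold from the lowest to the highest. It was at 18.8, 29.6 and 13.4 CPM in primary untreated tumors and at 18.1, 16.8 and 17.7 CPM in primary STV tumors. The recurrent 17-DMAG tumors were at 39.1, 20.7 and 20.8 CPM, and the recurrent 17-DMAG + STV tumors at 36.5 and 21.4 CPM. Each recurrent group and the primary untreated group therefore held 1 tumor well above the others of that group, and both recurrent 17-DMAG + STV tumors lay above all 3 primary STV tumors. Averaged over both water arms, recurrent tumors were higher by 0.55 (SE 0.26, interval -0.03 to 1.12), the largest difference of a member in that comparison, where Rnaseh2b had the smallest (-0.04). The edgeR adjusted p for Tmem173 was 0.381.

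The 2 highest tumors for Tmem173 were the 2 with the highest leukocyte sums, 323 and 203 CPM, where the other 9 tumors were at 111 to 170 CPM. The third highest, primary untreated tumor 2 at 29.6 CPM, had a leukocyte sum of 117 CPM, near the low end of that range. Of the 11 leukocyte markers, 9 were above 0 in all 13 libraries. In the glands the order was opposite, since gland 2 had the higher Tmem173 and the lower leukocyte sum. Their part in the level of Tmem173 was not tested. The genes whose centred log2 levels lay nearest to those of Tmem173 over the 11 tumors were Fosl2, Efcab5 and Celf2, with root mean square differences of 0.19, 0.19 and 0.21, where the median of all 16869 other genes was 0.59.

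Mb21d1, which encodes the sensor upstream of STING, was at 6.81, 5.28 and 6.22 CPM in primary untreated tumors, 6.12, 6.77 and 8.60 in primary STV tumors, 6.53, 5.72 and 8.37 in recurrent 17-DMAG tumors and 6.69 and 4.75 in recurrent 17-DMAG + STV tumors. All 4 groups overlapped. Within a tumor, the ratio of Mb21d1 to Tmem173 counts ran from 0.167 in recurrent 17-DMAG tumor 1 to 0.487 in primary STV tumor 3. Downstream, Tbk1 and Irf3 were the steadiest members by range, with 1.45-fold and 1.42-fold between the lowest and the highest tumor. Beside genes of like level, Tbk1 was not among the steadiest. Of such genes 34.2% had a smaller SD of log2 CPM than Tbk1 and 21.4% a smaller SD than Irf3. These shares were 21.3% for Mb21d1, 23.9% for Rnaseh2c and 27.7% for Trex1, and larger for the remaining members. Tbk1 was at 57.9 to 79.5, 54.8 to 65.0, 62.6 to 77.1 and 62.6 to 63.7 CPM in the 4 groups in the order above. Irf3 was at 46.6 to 57.1, 52.0 to 55.6, 49.4 to 61.8 and 58.4 to 66.0 CPM in that order. Stavudine averaged over primary and recurrent tumors gave log2 differences from -0.24 for Rnaseh2c (interval -0.56 to 0.07) to 0.10 for Irf3 (-0.11 to 0.30), with Mb21d1 nearest to 0 at -0.02 (-0.42 to 0.38). In that comparison 0 of 10 members had an unadjusted p under 0.05, against 4.71% of all genes.

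Adar split the tumors within groups rather than between them. Primary untreated tumors were at 93.5, 64.7 and 96.0 CPM and primary STV tumors at 85.9, 59.4 and 101 CPM. Recurrent 17-DMAG tumors were at 74.3, 95.8 and 106 CPM, and recurrent 17-DMAG + STV tumors at 98.2 and 66.1 CPM. Each group held 1 low tumor, and the other 7 tumors lay between 85.9 and 106 CPM. The 4 low tumors were also the 4 with the lowest sums of 15 transcripts that interferon and IRF3 are known to induce, such as Ifit1, Isg15 and Oas2. These sums were 61.8 CPM in primary untreated tumor 2, 113 in recurrent 17-DMAG + STV tumor 2, 145 in primary STV tumor 2 and 187 in recurrent 17-DMAG tumor 1, against 210 to 424 CPM in the other 7 tumors. Gland 2, the library with the highest Adar, also had the highest sum (967 CPM), and gland 1 (314 CPM) lay within the range of the tumors. Of the 15 genes, 14 were above 0 in all 13 libraries. Ifnb1 was at 0 in 12 of them, with 2 counts in recurrent 17-DMAG tumor 2. By the mean log2 CPM of the 15 genes, the match did not hold for recurrent 17-DMAG tumor 1. That tumor was at 2.80, above primary STV tumor 1 (2.59) and primary untreated tumor 1 (2.73), which were not low for Adar.

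Adar is itself known to be induced by interferon from 1 of its starts. Its level and these sums come from the same libraries, which share depth and composition, and their relation was not tested. The genes nearest to Adar over the 11 tumors were Parp10, Gnb5 and Psmb10, with root mean square differences of 0.12, 0.13 and 0.14, where the median of all genes was 0.44. Parp10 encodes an ADP-ribosyltransferase and Psmb10 a subunit of the immunoproteasome.

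**Figure D4:**
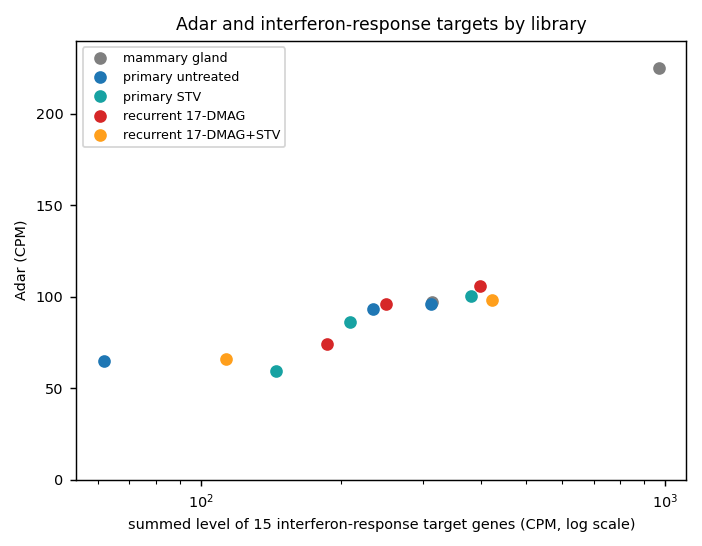
Adar level in CPM (y axis, from 0) against the summed level of 15 interferon-response target genes (x axis, log scale) in the 13 libraries, coloured by group. The 4 tumors under 200 CPM of targets have Adar at 59.4 to 74.3 CPM, the other 7 tumors lie between 85.9 and 106 CPM, and gland 2 stands alone at the upper right.

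Trex1, the cytosolic DNA exonuclease, was at 10.0 and 9.71 CPM in the glands and at 7.21, 8.17 and 8.90 CPM in primary untreated tumors, below both glands. The primary STV tumors were at 6.84, 8.70 and 8.60 CPM and the recurrent 17-DMAG tumors at 6.16, 8.51 and 8.08 CPM. The recurrent 17-DMAG + STV tumors held both the highest and the lowest level of all tumors, 10.5 and 5.65 CPM. Its log2 differences between tumor groups stayed between -0.11 and 0.10 in the pairwise comparisons. All 1147 exon bases of Trex1 (chr9:109057933-109059734, GRCm38, minus strand) also lie in exons of Atrip on the same strand in the GENCODE annotation, so how its reads were divided between these genes is uncertain. On the opposite strand, Adar shares 1365 exon bases with Chrnb2, Rnaseh2c 426 with Kat5, Mb21d1 201 with Gm8093 and Rnaseh2a 177 with Prdx2. Irf3 shares 88 with Bcl2l12 and Rnaseh2b 66 with Dleu7, also on the opposite strand. Rnaseh2a shares 339 with Gm49661 on its own strand. The strand setting of the counting was not given, so the levels and ratios of these members carry the same uncertainty.

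The RNase H2 subunits ordered the groups differently. Rnaseh2a, the catalytic subunit, was at 18.2, 19.9 and 18.7 CPM in primary untreated tumors, above both glands (15.2 and 16.2 CPM). It was at 15.2, 17.0 and 18.6 CPM in primary STV tumors, 12.99, 18.0 and 19.2 CPM in recurrent 17-DMAG tumors, and 17.2 and 10.7 CPM in recurrent 17-DMAG + STV tumors. The lowest tumor, recurrent 17-DMAG + STV tumor 2, also had the lowest sum of 8 proliferation markers, 273 CPM against 502 to 985 in the other 10 tumors. The next lowest, recurrent 17-DMAG tumor 1, had the highest sum of them. The part of proliferation in the level of Rnaseh2a was not tested.

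Rnaseh2b, an accessory subunit, was at 12.8, 8.05 and 12.7 CPM in primary untreated tumors. It was at 14.3, 13.9 and 14.5 CPM in primary STV tumors and at 13.04, 14.99 and 14.7 CPM in recurrent 17-DMAG tumors. In recurrent 17-DMAG + STV tumors it was at 11.4 and 9.85 CPM. The primary STV and recurrent 17-DMAG tumors lay above the primary untreated tumors, and the recurrent 17-DMAG + STV tumors lay below both. The lowest recurrent 17-DMAG tumor (13.04 CPM) was close to the highest primary untreated tumor (12.8 CPM). The interaction of recurrence and stavudine was -0.75 on the log2 scale (SE 0.28, interval -1.38 to -0.12), with an unadjusted p of 0.0238 and an adjusted p of 0.587 by edgeR's quasi-likelihood test. It was the 1 member of 10 with an unadjusted p under 0.05 there, against 7.84% of all genes, and the smallest interaction was that of Tbk1 (0.04). Leaving out 1 tumor at a time gave values from -0.90 to -0.60.

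Rnaseh2c, the other accessory subunit, was at 9.06 to 13.02 CPM in primary untreated, 9.49 to 11.5 in primary STV and 10.2 to 12.3 in recurrent 17-DMAG tumors. The recurrent 17-DMAG + STV tumors, at 9.29 and 7.40 CPM, lay below both of the latter. The ratio of Rnaseh2a to Rnaseh2b within a library was 1.38 in gland 1 and 3.36 in gland 2. In tumors it ran from 0.996 to 1.51, apart from 2.47 in primary untreated tumor 2. That tumor and gland 2 had the lowest Rnaseh2b levels of their groups. Rnaseh2a to Rnaseh2c ran from 1.03 to 2.01 over the 13 libraries. These are ratios of counts that were not divided by transcript length.

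**Figure D5:**
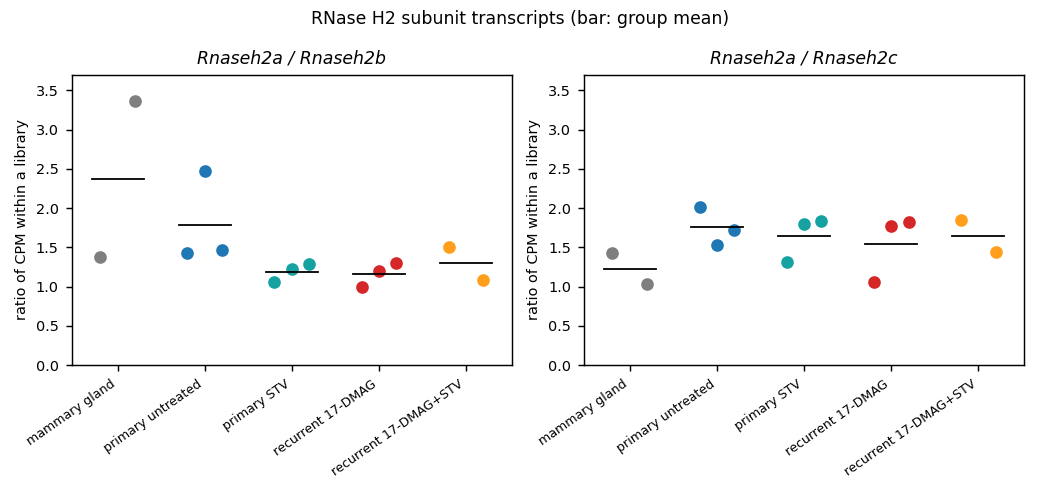
Ratio of Rnaseh2a to Rnaseh2b and to Rnaseh2c within each library (y axes, CPM over CPM, from 0) by group (x axis); points are libraries and bars are group means. The ratio to Rnaseh2b is 3.36 in gland 2 and 2.47 in primary untreated tumor 2 and 1.51 or less in the other 11 libraries.

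Other genes of the pathway were taken from 4 lists with 69 genes, of which 66 passed the filter on low counts: 14 further sensors, 23 further signalling genes, 17 further genes of nucleic acid metabolism and the 15 targets. In primary untreated tumors against gland, 3 of the 66 were called, all lower in tumors, against 1.83% of all genes called lower. They were Dnase1l3, a DNase secreted by immune cells (-3.71, SE 0.70, adjusted p = 0.0397 by edgeR), the endosomal DNA receptor Tlr9 (-2.07, SE 0.44, adjusted p = 0.0468) and the adaptor Myd88 (-0.88, SE 0.20, adjusted p = 0.0496). Dnase1l3 was at 16.8 and 2.43 CPM in the glands and at 0.962 CPM or less in every tumor. Tlr9 was at 10.0 and 4.43 CPM in the glands and at 1.39 to 3.36 CPM in the tumors. Gland 1, which had the higher leukocyte sum, was the higher gland for both.

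Over the 4 tumor groups against gland, 9 of the 66 were called, all lower in tumors, against 8.81% of all genes called lower. Besides Dnase1l3, Tlr9 and Myd88 they were the DNA sensor Aim2 (-1.81), the kinase Ikbke (-1.24), the STING inhibitor Nlrc3 (-1.59), the transcription factor Irf5 (-1.20) and the targets Ccl5 (-3.54) and Oas2 (-3.41). By list they were 2 of 14 sensors, 4 of 23 signalling genes, 1 of 15 tested genes of nucleic acid metabolism and 2 of 14 tested targets. The list medians were -0.46, -0.24, -0.32 and -1.37 on the log2 scale, beside -0.02 for all genes. Oas2, an interferon-induced enzyme that senses RNA, was at 28.2 and 247 CPM in the glands and at 2.77 to 51.9 CPM in the tumors. Gland 2 was the higher gland for Oas2 and gland 1 for Ccl5 (17.8 and 2.11 CPM), so the targets did not share 1 order over the glands. In the same comparison 6 of the 11 leukocyte markers were called, all lower in tumors, 11 of 11 were fitted lower and their median was -2.13. They summed to 164 and 644 CPM in the glands and to 111 to 323 CPM in the tumors, and their part in the differences of the pathway genes was not tested.

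Between tumor groups 0 of the 66 were called by edgeR. In recurrent 17-DMAG + STV against primary STV tumors, the fitted change was above 0 for 10 of 14 targets (median 0.09). The share of all genes there was 51.8%. Against recurrent 17-DMAG tumors it was above 0 for 6 of 14 targets (median -0.05), where the share of all genes was 49.4%. Against primary untreated tumors, the fitted change of the targets was above 0 for 13 of 14 in primary STV (median 0.26) and for 14 of 14 in recurrent 17-DMAG tumors (median 0.40), where all genes had medians of -0.03 and -0.01 and shares above 0 of 44.9% and 49.4%. Both comparisons share the primary untreated tumors, of which tumor 2 had the lowest target sum of all. Of these targets, 1 of 14 had an unadjusted p under 0.05 in each comparison, the chemokine gene Cxcl10, at 1.69 (SE 0.71, adjusted p = 1.00) and 1.86 (SE 0.72, adjusted p = 0.509). Its levels were low, 0.122 to 0.438 CPM in primary untreated, 0.391 to 1.92 in primary STV and 0.536 to 1.36 in recurrent 17-DMAG tumors. In primary STV against primary untreated tumors the next smallest p-values were those of Mre11a (log2 difference 0.21) and Dnase2a (0.33), and in recurrent 17-DMAG tumors the smallest were those of Myd88 (log2 difference 0.47), Cxcl10 and Irf5 (0.75).

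The gene of this pathway with the smallest p between recurrent and primary tumors was Ticam1, which encodes TRIF, the adaptor of the RNA receptor TLR3. It was at 35.4, 41.7 and 39.7 CPM in primary untreated and at 40.6, 27.6 and 37.3 CPM in primary STV tumors. It was at 24.9, 34.7 and 34.1 CPM in recurrent 17-DMAG and at 24.0 and 16.6 CPM in recurrent 17-DMAG + STV tumors, so that each recurrent group had a lower mean than its primary group. Averaged over both water arms, its log2 difference was -0.56 (SE 0.15, adjusted p = 0.287 by edgeR). The 3 tumors with the lowest Mavs, which had the highest fibroblast sums, were also the 3 lowest for Ticam1. Ticam1 was picked by its p in this comparison, and Mavs had the smallest p of the members in it. Their match is therefore not a test. Irf5 (0.81, SE 0.22, adjusted p = 0.287) and Myd88 (0.39, SE 0.11, adjusted p = 0.289) went the other way in that comparison.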

How the data were processed

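Total RNA depleted of ribosomal RNA was sequenced with a stranded kit. The authors demultiplexed the reads with bcl2fastq 2.20, aligned them with STAR to mm10/GRCm38, counted them per gene with featureCounts (Subread 1.6.2) and tested them with DESeq2. The deposited values are raw counts per gene, not normalized, in 1 column per library. The strand setting and the handling of multi-mapping reads are not given in the sources used here.

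Counts were analysed in R 4.3.3 with edgeR 4.0.16: filterByExpr, TMM factors and the robust quasi-likelihood test, with Benjamini-Hochberg adjustment over all genes and a threshold of 0.05. Gland comparisons were fitted on 13 libraries (17135 genes) and tumor comparisons on 11 (16870 genes). Fold changes are log2 with model standard errors and 95% intervals. CPM used TMM factors over the 13 libraries, and 3 counts equal 0.0587 to 0.107 CPM. Such floors of single libraries cover counting error only, while the 95% intervals also hold the spread between libraries. Alternatives were DESeq2 1.42.0, limma 3.58.1 voom, RLE scaling, scaling without milk, muscle and adipocyte genes, no filter, other libraries in the fit, each library left out, and the replicate number as a block.

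The 10 members and all gene lists were chosen with earlier results of these data known. All members are named. Fold changes with errors are given for members with an unadjusted p under 0.05 and for the largest and smallest change of a comparison, other pathway genes are named when called or, at most, the 3 with the smallest p, and likeness is the root mean square difference of centred log2 CPM, given for the 2 members with the largest SD over tumors. Some intervals and tests beyond this were printed after their values were seen. The marker list and the number of tumors set beside Adar, Mavs, Tmem173 and Rnaseh2a were set for each gene where they matched. Those matches are therefore not tests. Transcript lengths, positions and exon overlaps came from GENCODE M21 and start windows from RefSeq, both on GRCm38. Pairs of libraries of 1 group all differed beyond sampling noise, so none was counted as a duplicate.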

Additional observations from a re-analysis of the deposited data

How the results depend on the processing

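No member was called in any tumor comparison under any alternative, and no alternative turned the direction of a member difference with an unadjusted p under 0.05. Of the other differences from the gland over the 4 tumor groups, those of Mavs, Irf3 and Rnaseh2c turned without gland 2 and that of Mb21d1 without gland 1. In primary untreated tumors against gland, Mavs went from -0.13 to 0.54, Irf3 from -0.21 to 0.06 and Rnaseh2c from -0.26 to 0.15 without gland 2, and Mb21d1 from -0.24 to 0.04 without gland 1. Against gland, the count of members called was 0 in the fit reported. For primary untreated tumors it was 0 to 3 when 1 library was left out, 3 being reached without gland 1. For the 4 tumor groups it was 0 to 4 when 1 library was left out, 4 being reached without gland 1, and 2 with DESeq2. The other alternatives gave 0. With only 2 glands, 1 of them with milk protein genes at a large share of counts, gland differences cannot be told apart from differences between these glands.

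The replicate numbers gave no clear pairing of the tumors: of 15 same-numbered pairs, 2 had deviations correlated over 0.1, with a range from -0.30 to 0.22. Deviations were taken from the mean of each small group, which ties them to each other, so these correlations cannot exclude a pairing. With the replicate number as a block 0 members were called in every comparison. Counts over all genes moved more. For primary untreated tumors against gland, edgeR called 361 genes, 4 with the block, 2336 with DESeq2 and 0 to 3381 when 1 library was left out. For the 4 tumor groups against gland it called 1785, 371 with the block, 3238 with DESeq2 and 535 (without gland 2) to 4255 (without gland 1) when 1 library was left out. Between tumor groups edgeR called 0 genes and DESeq2 17 to 525, and leaving out recurrent 17-DMAG + STV tumor 1 gave up to 141 in a single comparison. The cause was not tested. With 2 or 3 tumors per group, the intervals given in the report set what could be seen.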
